A study of Mus musculus with 28 samples.

Results

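Semaphorins are secreted, membrane-bound or lipid-anchored guidance cues, and plexins and neuropilins are the receptors through which they signal. The 31 mouse genes of these families, 20 semaphorins as ligands and 9 plexins and 2 neuropilins as receptors, were taken by symbol and matched to Ensembl identifiers, of 55416 gene identifiers counted in cohort G and 55359 in cohort F. Bulk RNA-seq of tibialis anterior (TA) muscle had been performed at 8 weeks of age in 2 mouse models of centronuclear myopathy (CNM) on a C57BL/6N background, to ask what the disease and a tamoxifen (TAM) diet do to the transcriptome. Cohort G comprised WT mice on placebo, WT treated mice on TAM, disease mice on placebo that carry the heterozygous Dnm2 S619L/+ mutation of the membrane-cutting GTPase dynamin 2 in all tissues, and disease treated mice with the same mutation on TAM. Cohort F comprised WT mice on placebo, disease mice on placebo with Bin1 mck-/-, a deletion of the membrane-curving protein amphiphysin 2 driven by the muscle creatine kinase (mck) promoter and thus limited to muscle cells, and disease treated mice of this genotype on TAM. Each of the 7 groups held 4 mice, 28 in all, and cohort F held no WT mice on TAM. TAM is a modulator of estrogen receptors that binds them and raises or blocks their activity according to the tissue.

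Class 3 semaphorins are secreted and most bind a neuropilin that pairs with a plexin of the A type, whereas semaphorins of classes 4 to 7 act at the cell surface and bind plexins directly. Plexins carry an intracellular domain that switches off small GTPases of the Ras and Rap type, which loosens adhesion and the actin cytoskeleton of the receiving cell. Neuropilins also bind vascular endothelial growth factors (VEGF). In muscle these cues are known from motor axons, the neuromuscular synapse, capillaries and satellite cells, and semaphorins also act between the cells of bone.

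Library sizes were 15586333 to 109710886 reads on genes in cohort G (median 28832003) and 24671835 to 35136327 in cohort F (median 30657896). The muscle label held in every mouse, with 10 myofiber markers summing to between 107600 and 236700 CPM, the reads per 1000000 reads of the TMM-scaled library. Bin1 fell from 521 to 556 CPM in WT to 51.6 to 62.1 CPM in disease mice of cohort F, whereas a point mutation such as that of Dnm2 leaves no trace in such counts. RNA input (300 ng against 350 ng) and fragmentation (2 min against 8 min) changed together with the model, so that model and protocol cannot be told apart between the cohorts. Some mice stood apart in markers of other tissues. Disease mouse 4 of cohort G had 27.3 summed CPM of 8 lymphocyte markers against 1.45 to 2.06 in the other 3 disease mice. It also had 445 summed CPM of 9 macrophage markers against 123 to 246, and 85.8 of 12 Schwann cell markers against 220.5 to 283. Disease mouse 4 of cohort F had 1084 summed CPM of 7 tendon markers against 106.8 to 259.5 in the other 3 disease mice. In cohort F, disease treated mouse 2 had 298 summed CPM of 10 osteoblast and osteocyte markers against 18.7 to 24.97 in the other 3, and 183 summed CPM of 8 osteoclast markers against 6.18 to 18.2. In cohort G, disease treated mouse 4 was the lowest of its group for both, with 48.2 and 24.7 summed CPM against 186 to 540 and 250.2 to 728. Calls that were lost without one of these mice are given with the value without it. In addition, WT mouse 4 of cohort G had 269 summed CPM of tendon markers against 47.96 to 74.75 in the other 3 WT mice. Without it the calls of Plxna3 in disease against WT and of Plxna2 for TAM in WT were lost. Those of Sema3a, Sema4a and Nrp2 in disease treated against WT were lost too. In bulk muscle, fewer cells of a type and less RNA per cell cannot be told apart.

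In WT muscle the ligands and receptors spanned a wide range of levels per exon length. The highest members in WT mice of cohort G were Sema6c, a transmembrane ligand of plexin A receptors, at 16.7 ± 1.97 CPM per kb of exon (SD, n = 4), and Sema4d, the ligand of plexin B1, at 11.9 ± 1.01. They were followed by the lipid-anchored Sema7a, a ligand of plexin C1 and integrins, at 9.97 ± 0.566 and by Plxnd1, an endothelial plexin, at 9.42 ± 1.92 CPM per kb. The levels of Sema7a and Plxnd1 lay within each other's spread. Nrp1, the co-receptor of Sema3a and VEGF, was at 5.15 ± 0.732 CPM per kb and Nrp2, the co-receptor of Sema3f and Sema3g, at 2.67 ± 0.386. At the low end, Sema3a, Sema3d and Plxnc1 lay within each other's spread at 0.118 ± 0.0251, 0.126 ± 0.0479 and 0.126 ± 0.0292 CPM per kb. Sema3e, Sema4f, Sema4g and Sema5b were all below 0.1 CPM per kb. In cohort F Sema6c was again the highest member, at 26.2 ± 4.63 CPM per kb, and Sema3a was lower, at 0.0401 ± 0.00902.

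**Figure D1:**
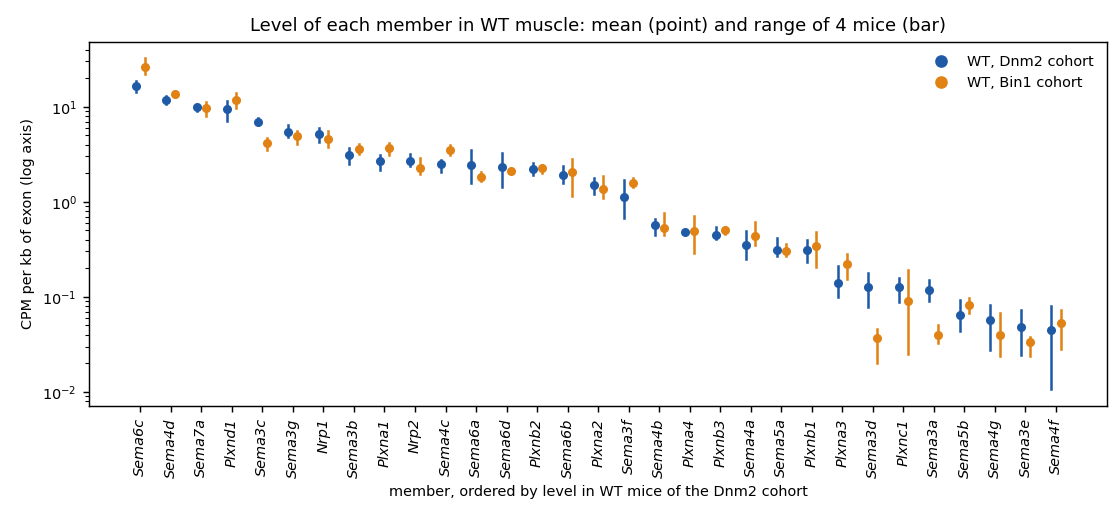
Level of the 31 members in WT TA muscle, in CPM per kb of exon on a log axis, as the mean (point) and the range of 4 mice (bar) for the WT mice of the Dnm2 cohort (cohort G) and of the Bin1 cohort (cohort F). Members are ordered by their level in cohort G, from Sema6c at 16.7 to Sema4f at 0.0449 CPM per kb.

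TAM acts on a receptor that binds DNA. Members called higher under TAM in Dnm2 S619L/+ mice are therefore shown by the 250 bases before their start site. These are the 6 members that rose in that comparison, given 5′ to 3′ on the strand of the gene, from RefSeq on build GRCm38.p6, with the letters GGTCA or their reverse complement TGACC, 1 arm of the estrogen response element, in capitals.
Sema3g (chr14:31217623-31217872, plus strand): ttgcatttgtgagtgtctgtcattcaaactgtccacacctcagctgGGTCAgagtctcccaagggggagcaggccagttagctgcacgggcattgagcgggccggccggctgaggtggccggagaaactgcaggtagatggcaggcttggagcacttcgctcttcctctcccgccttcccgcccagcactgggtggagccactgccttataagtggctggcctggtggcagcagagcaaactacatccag
Sema6b (chr17:56133853-56134102, minus strand): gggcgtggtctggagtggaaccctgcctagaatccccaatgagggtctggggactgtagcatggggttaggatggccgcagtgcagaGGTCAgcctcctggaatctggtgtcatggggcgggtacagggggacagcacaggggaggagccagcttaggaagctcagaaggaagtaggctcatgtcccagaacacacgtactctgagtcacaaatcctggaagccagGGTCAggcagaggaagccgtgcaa
Sema7a (chr9:57939862-57940111, plus strand): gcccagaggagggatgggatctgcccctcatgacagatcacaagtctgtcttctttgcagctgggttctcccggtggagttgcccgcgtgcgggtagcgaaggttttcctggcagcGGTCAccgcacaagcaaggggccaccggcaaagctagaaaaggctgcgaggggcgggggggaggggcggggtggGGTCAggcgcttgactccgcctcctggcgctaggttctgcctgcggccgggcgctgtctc
Plxna2 (chr1:194619579-194619828, plus strand): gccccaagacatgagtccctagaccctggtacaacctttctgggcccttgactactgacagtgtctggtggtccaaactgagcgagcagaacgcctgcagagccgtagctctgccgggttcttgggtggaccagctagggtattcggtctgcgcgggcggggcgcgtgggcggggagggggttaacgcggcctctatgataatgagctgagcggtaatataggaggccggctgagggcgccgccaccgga
Plxnb1 (chr9:109095186-109095435, plus strand): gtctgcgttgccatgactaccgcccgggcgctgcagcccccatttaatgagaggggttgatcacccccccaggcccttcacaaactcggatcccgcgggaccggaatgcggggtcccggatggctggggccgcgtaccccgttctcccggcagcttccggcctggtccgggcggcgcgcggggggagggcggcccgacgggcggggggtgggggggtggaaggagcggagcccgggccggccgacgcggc
Nrp2 (chr1:62703067-62703316, plus strand): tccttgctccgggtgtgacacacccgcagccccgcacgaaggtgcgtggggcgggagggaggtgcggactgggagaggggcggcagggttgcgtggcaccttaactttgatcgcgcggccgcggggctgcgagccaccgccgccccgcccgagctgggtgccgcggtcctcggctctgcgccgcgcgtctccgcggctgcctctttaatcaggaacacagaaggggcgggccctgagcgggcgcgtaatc
RefSeq held a promoter for 26 of the 31 members. The 5-base arm was found in the printed stretch of Sema3g, Sema6b and Sema7a and not in those of Plxna2, Plxnb1 and Nrp2, and over all members in 10 of 26 (38.5%), against 35.2% of 32851 promoters of the same length. The full palindrome GGTCANNNTGACC, searched on both strands and holding the 5-base arm on each side, was in none of the 26 and in 0.0639% of all promoters. The AP-1 motif TGANTCA, also searched on both strands, was in 1 of the 26, that of Sema6b, and in 6.75% of all promoters. These matches describe letters and no binding was measured.

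All 31 members passed the filter on low counts in cohort G and 30 did in cohort F, where Sema3e did not. Over the 8 comparisons within a cohort, 20 members were called in at least 1 (edgeR's quasi-likelihood test, Benjamini-Hochberg adjusted p below 0.05 over all genes), namely 13 ligands and 7 receptors, and 11 were called in none. Each of these comparisons called between 0.849% and 28.9% of all genes tested. The share of all genes called in at least 1 was not counted, so that 20 of 31 has no such share beside it. In the plot of all members by mouse, most of the color lies in cohort G, in the disease mice and in both TAM groups.

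**Figure D2:**
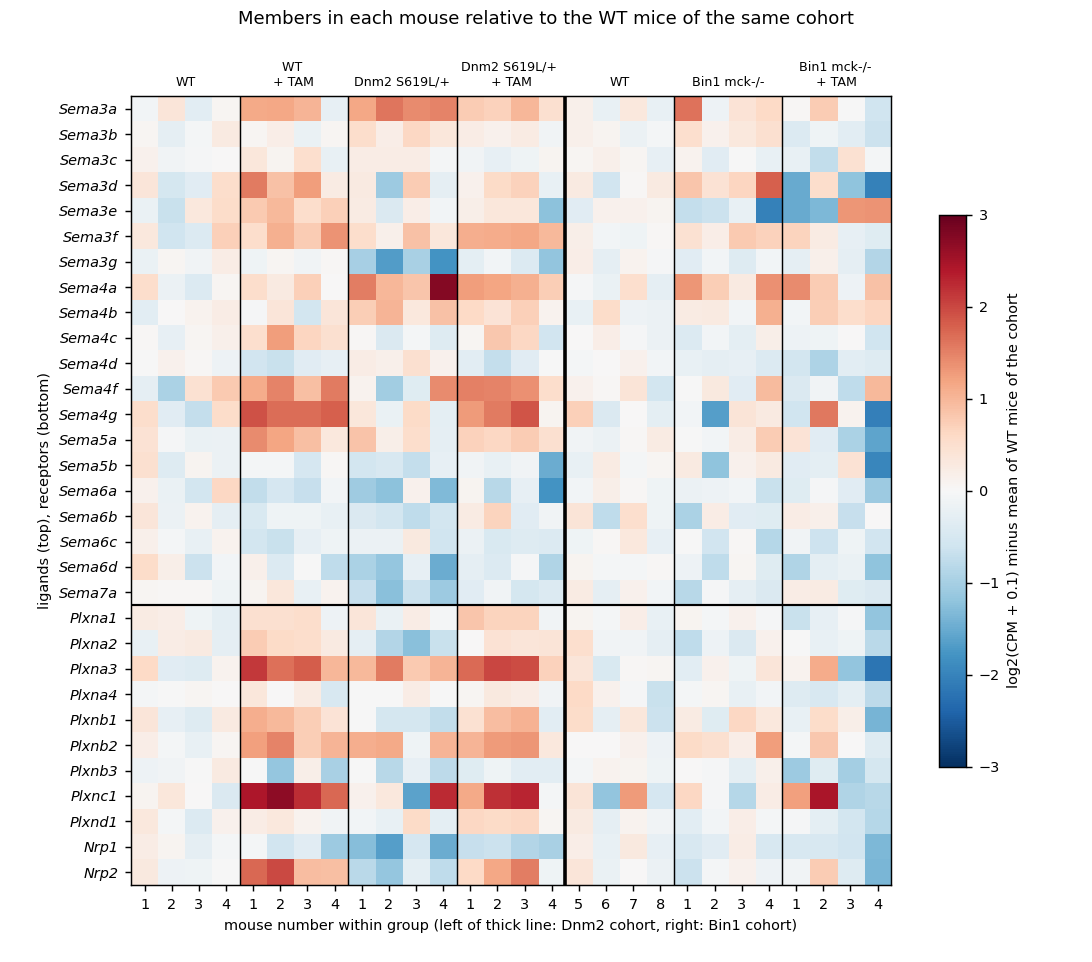
Level of the 31 members in each of the 28 mice, as log2(CPM + 0.1) minus the mean of the WT mice of the same cohort, with red for higher and blue for lower. Columns are mice by group, cohort G left of the thick line and cohort F right of it, and the horizontal line parts the 20 ligands from the 11 receptors. Sema3a and Sema4a are red and Sema3g, Sema7a and Nrp1 blue in disease mice of cohort G, and Nrp2, Plxna3 and Plxnc1 are red in its WT treated mice.

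Dnm2 S619L/+ muscle differed from WT muscle in 12 of the 31 members, 6 higher and 6 lower (38.7%), beside 21.9% of the 15439 genes tested. The median log2 fold change of the members was −0.03 and that of all genes 0.02, so that the members moved in both directions. Among the ligands, the secreted Sema3a and the transmembrane Sema4a and Sema4b rose, as did Sema3b, and Sema3g, Sema6b, Sema6d and Sema7a fell. Among the receptors, Plxna3 and Plxnb2 rose and Plxna2 and Nrp1 fell. All 4 class 6 ligands had negative log2 fold changes, 2 of which passed the test.

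Sema3a, the axon-repelling ligand of the Nrp1 and plexin A complex, was at 1.51, 2.09, 1.27 and 1.68 CPM in the 4 WT mice and at 3.72, 5.14, 4.44 and 4.71 in the 4 disease mice (edgeR log2 fold change 1.41 with SE 0.26, adjusted p = 0.00170). The highest WT mouse lay below the lowest disease mouse. Sema4a, a transmembrane ligand also made by immune cells, was at 2.70, 1.61, 1.34 and 1.92 CPM in WT and at 5.52, 3.74, 3.35 and 13.0 in disease mice (edgeR log2 fold change 1.69 with SE 0.36, adjusted p = 0.00416). The groups did not overlap, and the highest value came from disease mouse 4, the one with the lymphocyte markers, without which the log2 fold change was 1.098 (edgeR adjusted p = 0.00935). Sema4b, of the same class, was at 3.197 ± 0.504 CPM in WT and 5.43 ± 1.103 in disease mice (edgeR log2 fold change 0.76 with SE 0.22, adjusted p = 0.0227), and without disease mouse 4 it was not called (0.72, edgeR adjusted p = 0.0562). Sema3b, a secreted ligand related to Sema3a, rose the least, from 14.7 ± 2.35 to 19.6 ± 2.55 CPM (edgeR log2 fold change 0.42 with SE 0.13, adjusted p = 0.0366).

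Sema7a, the lipid-anchored ligand, had the smallest adjusted p of the family, with 34.1, 33.8, 33.6 and 30.1 CPM in WT mice and 20.3, 13.8, 21.0 and 15.5 in disease mice (edgeR log2 fold change −0.90 with SE 0.14, adjusted p = 0.000597). Sema3g, a secreted ligand that binds Nrp2, was at 21.6, 26.0, 23.1 and 29.1 CPM in WT and at 12.5, 7.68, 12.6 and 7.12 in disease mice (edgeR log2 fold change −1.32 with SE 0.22, adjusted p = 0.000837). For both ligands every disease mouse lay below every WT mouse. Sema6b and Sema6d, transmembrane ligands of plexin A receptors, fell from 7.57 ± 1.54 to 4.98 ± 0.469 CPM (edgeR log2 fold change −0.60 with SE 0.20, adjusted p = 0.0416) and from 24.7 ± 8.19 to 12.7 ± 4.93 CPM (edgeR log2 fold change −0.96 with SE 0.29, adjusted p = 0.0292).

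Nrp1, the co-receptor shared by Sema3a and VEGF, was at 58.6, 53.1, 41.7 and 48.2 CPM in WT and at 20.6, 15.8, 35.2 and 17.7 in disease mice (edgeR log2 fold change −1.18 with SE 0.24, adjusted p = 0.00316). Disease mouse 3 had the highest value of its group and the groups did not overlap. Plxna2, a receptor of class 6 semaphorins and, with neuropilins, of class 3, was at 21.6, 29.5, 30.4 and 20.7 CPM in WT and at 20.8, 13.7, 10.5 and 15.9 in disease mice (edgeR log2 fold change −0.73 with SE 0.19, adjusted p = 0.0126). Here the highest disease mouse reached into the range of WT. Plxna3, a partner of Nrp2, was at 1.66, 0.821, 0.791 and 1.14 CPM in WT and 2.16, 3.31, 1.90 and 2.26 in disease mice (edgeR log2 fold change 1.03 with SE 0.33, adjusted p = 0.0339). Plxnb2, a receptor of Sema4c and Sema4d, was at 19.8, 16.5, 14.8 and 17.9 CPM in WT and 36.5, 38.1, 15.8 and 34.8 in disease mice (edgeR log2 fold change 0.85 with SE 0.26, adjusted p = 0.0300). For Plxnb2, 3 disease mice were above all WT mice and disease mouse 3 was within the range of WT mice. Nrp2 was at 31.6 ± 4.57 CPM in WT and 19.0 ± 4.78 in disease mice and did not pass the test (edgeR log2 fold change −0.74 with SE 0.32, adjusted p = 0.106).

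Of the 12 calls, 5 were kept in each of the 16 fits that left out 1 mouse of cohort G (Sema3a, Sema3g, Sema4a, Sema7a and Nrp1). Without WT mouse 2 only 5 members were called, without disease mouse 2 there were 7 and without disease mouse 4 there were 6. The calls lost without disease mouse 4, the mouse with the lymphocyte markers, were those of Sema3b, Sema4b, Sema6b, Sema6d, Plxna3 and Plxnb2 (edgeR adjusted p = 0.0527, 0.0562, 0.0790, 0.0852, 0.0585 and 0.0715). Over the 16 fits Sema6b was kept in 7, Sema3b in 10, Sema6d, Plxna3 and Plxnb2 in 11 each, Sema4b in 12 and Plxna2 in 15. Without the filter on low counts the calls of Sema3b, Sema6b, Sema6d and Plxnb2 were lost as well.

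Of 53 tested genes that act with these receptors, a list of co-receptors, GTPases, effectors and VEGF genes, 13 rose and 5 fell in the same comparison (median log2 fold change 0.20). Flt1, the VEGF receptor 1, fell (edgeR log2 fold change −1.48 with SE 0.21, adjusted p = 0.000246), as did Mical2, an actin-oxidizing enzyme of a family that acts downstream of plexins (edgeR log2 fold change −1.23 with SE 0.19, adjusted p = 0.000452). Rras2, a small GTPase of the kind plexins switch off, rose (edgeR log2 fold change 0.84 with SE 0.13, adjusted p = 0.000473). Markers of other cells moved with these members. Of 11 endothelial markers 8 fell, with summed levels of 591 to 1038 CPM in WT and 320 to 671 CPM in disease mice, where mouse 3, the mouse with the highest Nrp1, was also the highest. Of 8 pericyte and smooth muscle markers 5 fell and 1 rose (1388 to 1537 summed CPM against 571 to 960.4), and of 11 denervation and regeneration genes 7 rose (84.8 to 89.5 against 176 to 391 summed CPM). Of 9 macrophage markers 4 rose (88.7 to 146 against 123 to 445 summed CPM), as did 3 of 7 tendon markers (48.0 to 269 against 265 to 517) and 2 of 9 markers of fibro-adipogenic progenitors (1151 to 1505 against 1333 to 2489), whereas 2 of 6 satellite cell markers fell (65.2 to 89.97 against 65.7 to 83.4). Their part in the result was not tested.

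TAM in WT mice of cohort G changed 12 members, 11 of them higher and 1 lower (38.7%), beside 27.7% of all genes tested. The median log2 fold change of the members was 0.32, against −0.04 over all genes. Of the 11 receptors 6 rose (Plxna2, Plxna3, Plxnb1, Plxnb2, Plxnc1 and Nrp2) and none fell, with a median of 0.53. Of the 20 ligands, Sema3a, Sema3f, Sema4c, Sema4g and Sema5a rose and Sema4d fell.

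Nrp2, the co-receptor of Sema3f and of VEGF-C, was at 38.2, 28.4, 28.6 and 31.2 CPM in the 4 WT mice and at 104, 124, 59.8 and 59.2 in the 4 WT treated mice (edgeR log2 fold change 1.46 with SE 0.32, adjusted p = 0.00408). The lowest treated mouse was above the highest untreated mouse. Plxnc1, the receptor of Sema7a, went from 1.095, 1.33, 1.03 and 0.737 CPM to 5.91, 7.17, 5.13 and 3.59 CPM (edgeR log2 fold change 2.32 with SE 0.63, adjusted p = 0.0141), the largest log2 fold change of a member in this comparison. Plxna3, which pairs with Nrp2 for Sema3f, was at 1.66, 0.821, 0.791 and 1.14 CPM in WT and at 4.97, 3.51, 3.96 and 2.21 in WT treated mice (edgeR log2 fold change 1.63 with SE 0.32, adjusted p = 0.00210). For these 3 receptors mice 1 and 2 or mice 1 and 3 of the treated group were the highest and mouse 4 the lowest. Plxnb2 was at 40.2, 48.5, 28.6 and 34.7 CPM in WT treated mice, all above the WT mice given above (edgeR log2 fold change 1.13 with SE 0.26, adjusted p = 0.00546). Plxnb1, the receptor of Sema4d, rose from 3.0 ± 0.776 to 5.27 ± 1.09 CPM (edgeR log2 fold change 0.78 with SE 0.28, adjusted p = 0.0441), and Plxna2 from 25.5 ± 5.12 to 36.8 ± 5.07 CPM (edgeR log2 fold change 0.53 with SE 0.19, adjusted p = 0.0436). The last 2 calls were kept in 9 and 8 of the 16 fits without 1 mouse.

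Sema4g, a transmembrane ligand at a low level, was at 0.700, 0.340, 0.237 and 0.715 CPM in WT and at 2.01, 1.68, 1.70 and 1.83 in WT treated mice (edgeR log2 fold change 1.66 with SE 0.36, adjusted p = 0.00393). Sema5a, a transmembrane ligand with thrombospondin repeats, was at 7.78, 5.60, 4.98 and 5.07 CPM in WT and at 15.5, 13.3, 10.8 and 7.25 in WT treated mice (edgeR log2 fold change 0.98 with SE 0.24, adjusted p = 0.00812). The groups did not overlap for Sema4g, whereas for Sema5a the lowest treated mouse lay below the highest WT mouse. Sema3f, the ligand of Nrp2 and plexin A3, went from 6.70, 3.51, 4.03 and 8.91 CPM to 7.76, 11.4, 9.23 and 13.9 CPM (edgeR log2 fold change 0.84 with SE 0.25, adjusted p = 0.0226), with some overlap. Sema3a was at 3.64, 3.72, 3.34 and 1.35 CPM in WT treated mice (edgeR log2 fold change 0.85 with SE 0.26, adjusted p = 0.0241), with 3 mice above the WT range and mouse 4 within it. Sema4c, a ligand of plexin B2, rose from 11.4 ± 1.33 to 19.2 ± 5.27 CPM (edgeR log2 fold change 0.75 with SE 0.25, adjusted p = 0.0368). Sema4d, the ligand of plexin B1, fell from 90.04, 100.4, 93.3 and 81.7 CPM to 61.3, 57.5, 71.6 and 77.0 CPM (edgeR log2 fold change −0.45 with SE 0.14, adjusted p = 0.0238). All treated mice were below all WT mice, while its receptor Plxnb1 rose. The calls of Sema3a, Sema3f, Sema4c and Sema4d were each kept in 12 of the 16 fits without 1 mouse. Each was lost without WT treated mouse 2, the highest of its group for Sema4c. That of Sema4c was also lost without the filter on low counts (edgeR adjusted p = 0.0627).

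Of the 12 calls, 6 were kept in all 16 fits without 1 mouse (Sema4g, Sema5a, Plxna3, Plxnb2, Plxnc1 and Nrp2), and only 6 members were called without WT treated mouse 2 and 7 each without WT mouse 2 or WT mouse 3. Of the 53 genes acting with the receptors, 14 rose and 5 fell, among them Pak1, an effector kinase of Rac (edgeR log2 fold change 0.84 with SE 0.11, adjusted p = 0.000251), and Dpysl3, a collapsin response mediator (edgeR log2 fold change 2.18 with SE 0.31, adjusted p = 0.000351), both higher. Markers of bone and connective tissue moved with the members here. Osteoblast and osteocyte markers summed to 30.4 to 57.9 CPM in WT and 299 to 934 CPM in WT treated mice (7 of 9 tested markers rose), and osteoclast markers to 7.27 to 11.9 and 264 to 1534 CPM (7 of 8). Tendon markers summed to 48.0 to 269 and 742 to 1713 CPM (6 of 7 rose), cartilage markers to 3.77 to 7.75 and 28.7 to 62.7 CPM (3 of 5) and macrophage markers to 88.7 to 146 and 219 to 420.4 CPM (7 of 9). Fibro-adipogenic progenitor markers summed to 1151 to 1505 and 2010 to 2529 CPM (3 of 9 rose). These 3 were Pdgfra, Dcn and Lum, and the median log2 fold change of the list was only 0.08. Mean levels went from 40.3 to 656 CPM for Lum and from 289 to 638 CPM for Dcn. Lymphocyte markers summed to 0.791 to 2.21 and 4.42 to 12.2 CPM (1 of 2 tested), and pericyte and smooth muscle markers to 1388 to 1537 and 1054 to 1210 CPM (1 of 8 fell). Myofiber markers summed to 159000 to 191400 CPM in WT and 125100 to 148200 CPM in WT treated mice, without overlap. None of these 10 was called by edgeR (7 at an unadjusted p below 0.05). Mice 1 and 2 of the WT treated group, highest for both bone lists, were also the highest for Nrp2, Plxnc1, Plxnb2, Sema3a and Sema5a. This did not hold for Plxna3, Sema4g and Sema3f, and Sema3f was lowest in mouse 1 and highest in mouse 4. Mouse 3 was the lowest for both bone lists, whereas mouse 4 was the lowest for Nrp2 and Plxnc1. Whether these cells are the source of the members' reads was not tested.

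**Figure D3:**
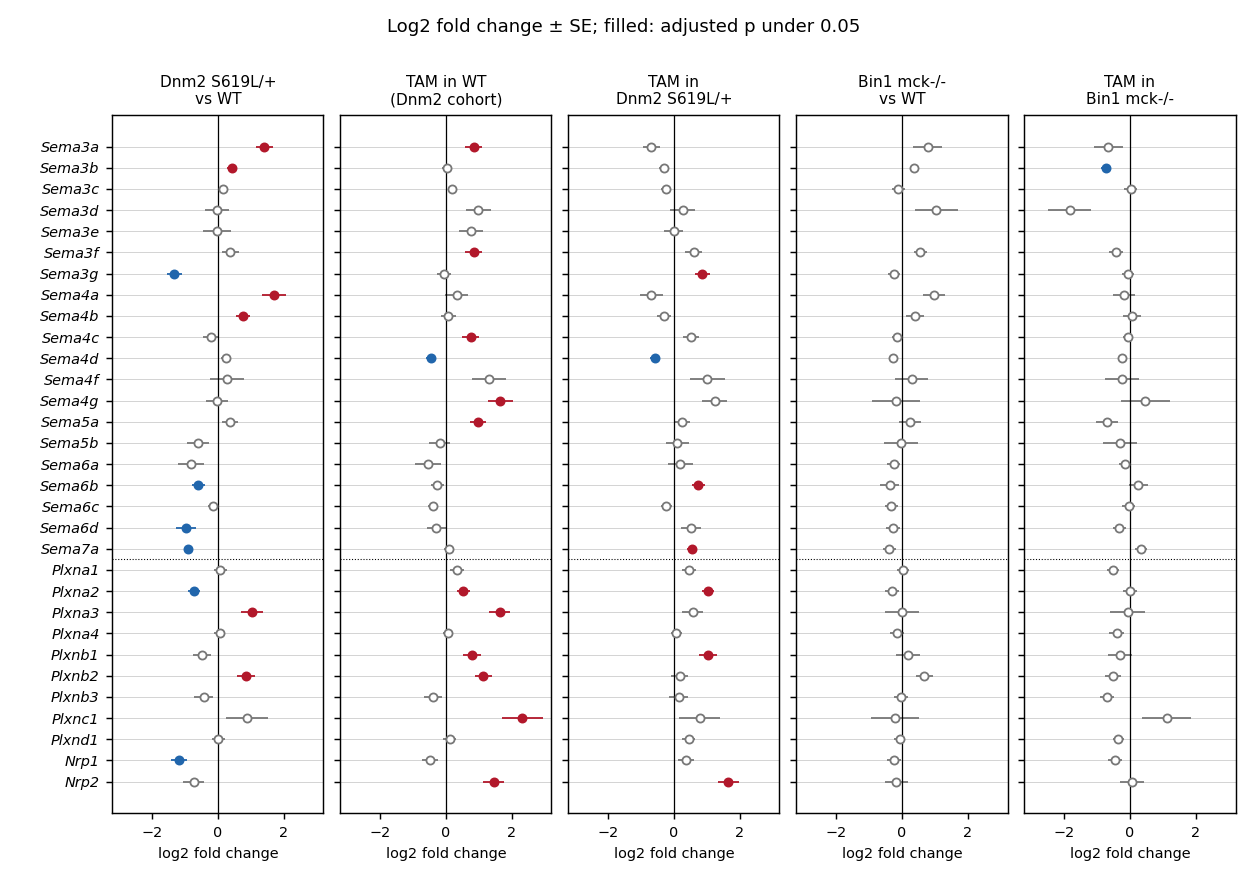
Log2 fold change with its standard error (horizontal bar) of each member in 5 comparisons, from edgeR's quasi-likelihood fit, with filled points where the adjusted p was below 0.05 (red higher, blue lower) and ligands above the dotted line. The filled points number 12, 12 and 7 in the panels of cohort G and 0 and 1 in those of cohort F, where Sema3e is not drawn.

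TAM in Dnm2 S619L/+ mice changed 7 members, 6 higher and 1 lower (22.6%), beside 8.27% of all genes tested. Both counts moved with single mice, that over all genes from 1277 to 368 without disease treated mouse 3 and to 2562 without disease treated mouse 4. The median log2 fold change of the members was 0.37, against −0.03 over all genes, and all 11 receptors had positive values, of which Plxna2, Plxnb1 and Nrp2 passed the test. Among the ligands, Sema3g, Sema6b and Sema7a rose and Sema4d fell. Sema3g, Sema6b, Sema7a and Plxna2 were called lower in disease mice and higher under TAM. Both comparisons share the 4 disease mice, whose values enter them with opposite sign. The share of all genes with both calls was not counted.

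Plxna2 was at 20.8, 13.7, 10.5 and 15.9 CPM in disease and at 25.5, 34.1, 32.5 and 32.8 in disease treated mice (edgeR log2 fold change 1.03 with SE 0.19, adjusted p = 0.00581). Nrp2 was at 17.9, 13.9, 25.4 and 18.6 CPM in disease and at 47.6, 70.4, 91.0 and 28.6 in disease treated mice (edgeR log2 fold change 1.64 with SE 0.32, adjusted p = 0.00824). Neither gene's groups overlapped. The treated mouse with the lowest Nrp2 was mouse 4, which was also the lowest for bone markers, and the log2 fold change without it was 1.88 (edgeR adjusted p = 0.000383). Plxnb1, a plexin with Sema4d as its ligand, was at 2.91, 2.02, 1.99 and 1.70 CPM in disease and at 4.05, 5.66, 6.10 and 2.35 in disease treated mice (edgeR log2 fold change 1.04 with SE 0.28, adjusted p = 0.0348), where treated mouse 4 lay within the range of disease mice.

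Sema3g was at 12.5, 7.68, 12.6 and 7.12 CPM in disease and at 20.3, 23.4, 18.5 and 10.8 in disease treated mice (edgeR log2 fold change 0.87 with SE 0.22, adjusted p = 0.0256). Treated mice 1 to 3 were above all disease mice and treated mouse 4 was within the range of disease mice. Sema7a was at 20.3, 13.8, 21.0 and 15.5 CPM in disease and at 25.7, 30.3, 22.7 and 24.8 in disease treated mice (edgeR log2 fold change 0.55 with SE 0.14, adjusted p = 0.0289), with no overlap. Sema6b was at 5.48, 5.04, 4.35 and 5.07 CPM in disease and at 8.86, 11.9, 5.86 and 6.91 in disease treated mice (edgeR log2 fold change 0.74 with SE 0.20, adjusted p = 0.0330), again with no overlap. The stretches before the start sites of these 3 ligands hold the 5-base arm, and those of Plxna2, Plxnb1 and Nrp2 do not. That of Sema4d, the member that fell, holds it too, as do 35.2% of all promoters. Whether the arm has a part in these changes was not tested. Sema4d went from 106, 101, 127 and 98.9 CPM to 72.9, 55.3, 71.6 and 90.4 CPM (edgeR log2 fold change −0.58 with SE 0.14, adjusted p = 0.0199), all treated mice being below all disease mice. Sema3a, called higher in disease, was at 4.5 ± 0.595 CPM in disease and 2.77 ± 0.432 in disease treated mice and did not pass the test (edgeR log2 fold change −0.69 with SE 0.26, adjusted p = 0.109).

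**Figure D4:**
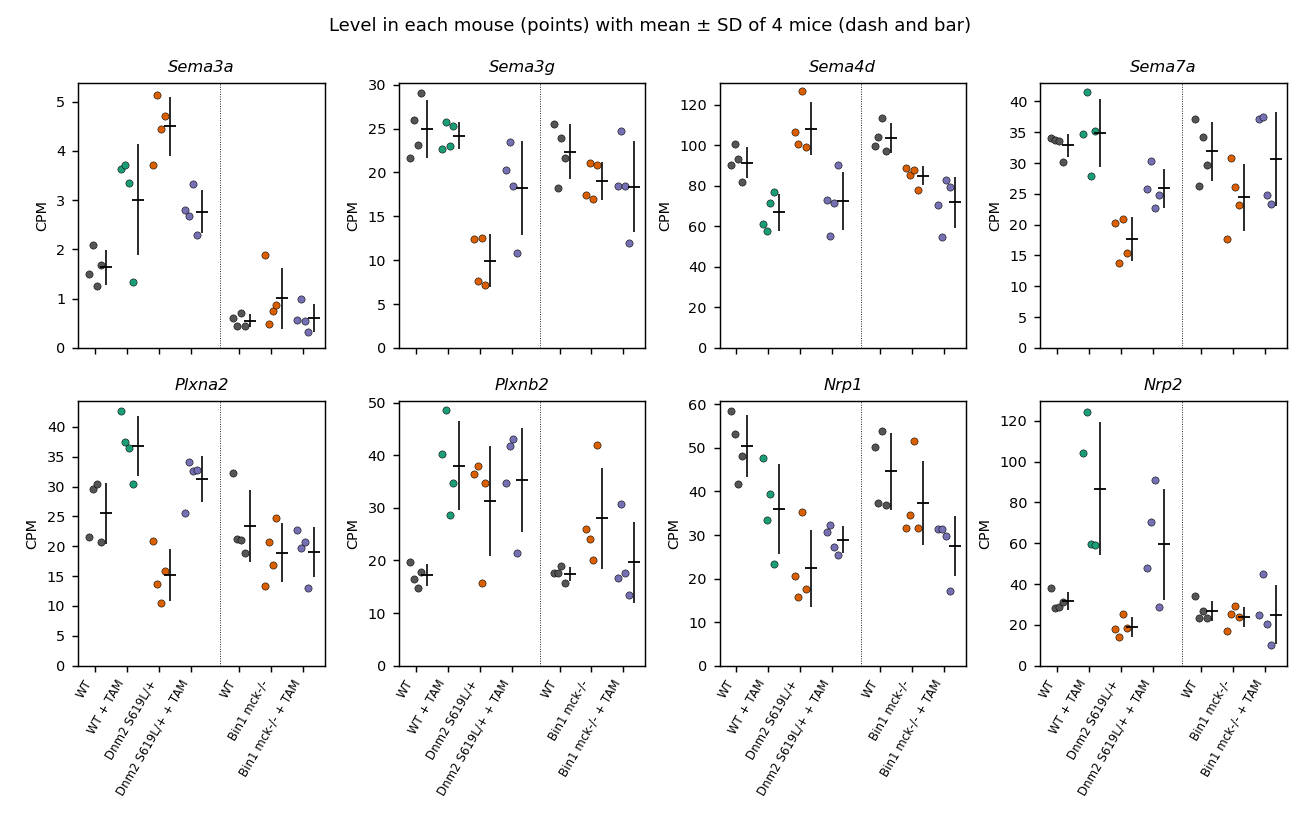
CPM of 8 members in each mouse (points) with the mean ± SD of 4 mice (dash and bar) by group, cohort G left and cohort F right of the dotted line, each axis starting at 0. Sema3g, Sema7a, Plxna2 and Nrp1 lie low in Dnm2 S619L/+ mice. Nrp2 lies high in both TAM groups of cohort G, up to 124 CPM, except in disease treated mouse 4, which lies within the range of WT mice.

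These calls depended on which groups entered the fit. With only the disease and disease treated mice in the fit, none of the 31 members was called (edgeR's quasi-likelihood test, 11 at an unadjusted p below 0.05 and 30 calls over all genes), whereas DESeq2 called 8 members. Of the 7 calls, Plxna2 and Nrp2 were kept in all 16 fits without 1 mouse. The count was 3 without disease mouse 4, when the calls of Sema3g, Sema6b, Sema7a and Plxnb1 were lost (edgeR adjusted p = 0.0662, 0.0639, 0.0748 and 0.0828), and 10 without disease treated mouse 4, when Sema4c, Sema4g and Plxna1 were also called, and it was 2 without disease treated mouse 2 and 3 without disease mouse 2, disease treated mouse 1 or disease treated mouse 3. Of the 53 genes acting with the receptors 5 rose and 1 fell, and those that rose included Farp1, a guanine nucleotide exchange factor that binds plexins (edgeR log2 fold change 0.69 with SE 0.15, adjusted p = 0.0138), and Dpysl4, a collapsin response mediator (edgeR log2 fold change 1.65 with SE 0.40, adjusted p = 0.0211). Osteoblast and osteocyte markers summed to 12.5 to 19.7 CPM in disease and 48.2 to 540 CPM in disease treated mice (7 of 9 rose), with Bglap2 and Mepe at 0 in all 4 disease mice, and osteoclast markers to 17.5 to 20.6 and 24.7 to 728 CPM (6 of 8 rose). None of the 11 endothelial markers was called by edgeR (2 at an unadjusted p below 0.05, 320 to 671 and 501 to 621 summed CPM). Their part in the members' changes was not tested.

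**Figure D5:**
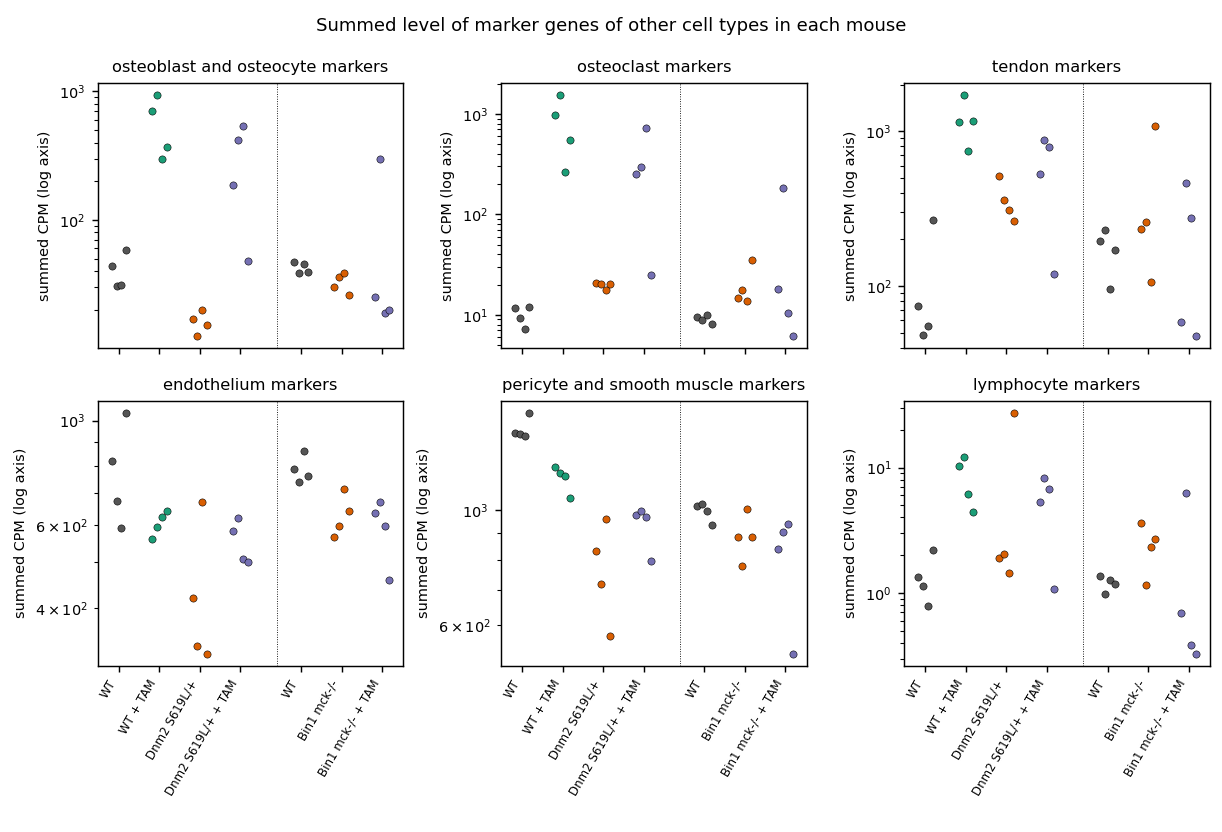
Summed CPM of the marker genes of 6 other tissues or cell types in each mouse, on log axes, by group, cohort G left and cohort F right of the dotted line. Both bone lists are high in the TAM groups of cohort G except in disease treated mouse 4 (48.2 and 24.7 summed CPM), and in cohort F in disease treated mouse 2 (298 and 183 summed CPM).

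Disease treated mice of cohort G differed from untreated WT mice in 8 members, 7 higher and 1 lower (25.8%), beside 28.9% of all genes tested. The members that were higher were Sema3a, Sema3f, Sema4a, Sema4g, Plxna3, Plxnb2 and Nrp2, and Nrp1 was lower. Plxna3 was at 3.68, 4.54, 4.41 and 1.76 CPM in disease treated mice against 1.103 ± 0.405 in WT (edgeR log2 fold change 1.60 with SE 0.33, adjusted p = 0.00243). Plxnb2 was at 34.8, 41.8, 43.2 and 21.5 CPM against 17.2 ± 2.12 (edgeR log2 fold change 1.03 with SE 0.26, adjusted p = 0.00923), and Sema3f at 11.7, 11.7, 12.2 and 10.7 CPM against 5.79 ± 2.51 (edgeR log2 fold change 0.97 with SE 0.26, adjusted p = 0.0106). These were the 3 calls kept in every fit without 1 mouse. Nrp1 was at 30.8, 32.2, 27.2 and 25.5 CPM, below every WT mouse (edgeR log2 fold change −0.80 with SE 0.23, adjusted p = 0.0187), and Sema4g at 1.26, 1.56, 1.97 and 0.494 CPM, with mouse 4 in the WT range (edgeR log2 fold change 1.21 with SE 0.37, adjusted p = 0.0220). Sema4a was at 4.48, 4.27, 3.97 and 3.15 CPM (edgeR log2 fold change 1.01 with SE 0.36, adjusted p = 0.0442), and Nrp2 and Sema3a, at the values given above, also passed (edgeR log2 fold change 0.91 with SE 0.32, adjusted p = 0.0425 and edgeR log2 fold change 0.72 with SE 0.26, adjusted p = 0.0479). For Nrp2, disease treated mouse 4 lay within the range of WT mice. Over the 16 fits without 1 mouse, Sema3a was kept in only 3, Sema4a in 7, Nrp2 in 8, Sema4g in 12 and Nrp1 in 14. Sema3g and Sema7a did not pass the test between disease treated and WT mice (edgeR log2 fold change −0.45 with SE 0.21, adjusted p = 0.126 and edgeR log2 fold change −0.35 with SE 0.14, adjusted p = 0.0776). Without disease treated mouse 4 there were 14 calls, and there were 3 without disease treated mouse 3, 4 each without disease treated mouse 2 or WT mouse 3, and 5 each without disease treated mouse 1 or WT mouse 2.
Of the 53 genes acting with the receptors 21 were higher and 5 lower, led by Mical2 (edgeR log2 fold change −1.68 with SE 0.19, adjusted p = 0.000107), Pak1 (edgeR log2 fold change 0.82 with SE 0.11, adjusted p = 0.000220) and Dpysl3 (edgeR log2 fold change 1.98 with SE 0.31, adjusted p = 0.000522). Without disease mouse 4, which is in neither group but informs the spread, Nrp2 and Sema3a lost their calls (edgeR adjusted p = 0.0528 and 0.0537). Pericyte and smooth muscle markers summed to 1388 to 1537 CPM in WT and 798 to 997 CPM in disease treated mice (4 of 8 lower), osteoclast markers to 7.27 to 11.9 and 24.7 to 728 CPM (7 of 8 higher, 1 lower), and osteoblast and osteocyte markers to 30.4 to 57.9 and 48.2 to 540 CPM (7 of 9 higher). Macrophage markers summed to 88.7 to 146 and 149 to 338 CPM (7 of 9 higher), tendon markers to 48.0 to 269 and 119 to 879 CPM (5 of 7 higher), and denervation and regeneration genes to 84.8 to 89.5 and 237 to 313 CPM (7 of 11 higher). Myofiber markers summed to 159000 to 191400 and 107600 to 176300 CPM (5 of 10 lower). The part of these markers in the members' differences was not tested.

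With both genotypes on TAM, no member passed the test between disease treated and WT treated mice of cohort G by edgeR's quasi-likelihood test, with 3 at an unadjusted p below 0.05 and 0 by DESeq2 and by limma voom, beside 2.70% of all genes. The largest differences in size were those of Sema3e (edgeR log2 fold change −0.81 with SE 0.37, adjusted p = 0.260) and Sema3d (edgeR log2 fold change −0.75 with SE 0.38, adjusted p = 0.314), and Mical2 was the gene of the receptor-associated list with the smallest adjusted p (edgeR log2 fold change −1.02 with SE 0.19, adjusted p = 0.00778). The change under TAM in disease mice minus that in WT mice was called for no member by edgeR's quasi-likelihood test (8 at an unadjusted p below 0.05, 2 members by DESeq2), beside 0.259% of all genes. Sema3a came nearest, with a log2 fold change of 0.85 under TAM in WT and −0.69 in disease mice (edgeR log2 fold change −1.53 with SE 0.37, adjusted p = 0.0923 for the difference). DESeq2 called Sema3a and Sema6b for this difference, and edgeR called Plxnb2 and Nrp1 without disease mouse 3 and Sema3a without WT treated mouse 4.

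In cohort F, none of the 30 tested members passed the test between Bin1 mck-/- and WT muscle by edgeR's quasi-likelihood test (5 at an unadjusted p below 0.05), beside 2.61% of the 14841 genes tested. DESeq2 called Sema4a. The median log2 fold change of the members was −0.09, against 0.01 over all genes. The values of the members called in cohort G were Sema3a at 0.615, 0.452, 0.704 and 0.452 CPM in WT and 1.89, 0.483, 0.760 and 0.879 in disease mice (edgeR log2 fold change 0.79 with SE 0.44, adjusted p = 0.337), and Sema4a at 2.27, 1.98, 3.33 and 1.90 CPM in WT and 5.98, 3.895, 2.82 and 6.15 in disease mice (edgeR log2 fold change 0.98 with SE 0.32, adjusted p = 0.110). For Sema3a 3 disease mice were above all WT mice and disease mouse 2 was within their range, and for Sema4a disease mouse 3 was. Sema3g was at 22.4 ± 3.13 CPM in WT and 19.1 ± 2.17 in disease mice (edgeR log2 fold change −0.23 with SE 0.18, adjusted p = 0.510), Sema7a at 31.9 ± 4.83 and 24.5 ± 5.47 (edgeR log2 fold change −0.38 with SE 0.19, adjusted p = 0.275) and Nrp1 at 44.6 ± 8.75 and 37.4 ± 9.58 (edgeR log2 fold change −0.26 with SE 0.21, adjusted p = 0.546). Plxnb2 was at 17.7, 17.5, 19.0 and 15.7 CPM in WT and 26.0, 24.2, 20.03 and 42.0 in disease mice (edgeR log2 fold change 0.68 with SE 0.26, adjusted p = 0.158), with every disease mouse above every WT mouse. Disease mouse 4, the one with the tendon markers, had the highest Plxnb2 and Sema4a of its group. Of 52 genes acting with the receptors, Pak1 (edgeR log2 fold change 1.18 with SE 0.17, adjusted p = 0.00522) and Rras (edgeR log2 fold change 0.60 with SE 0.15, adjusted p = 0.0445) were higher in Bin1 mck-/- mice. Fitted with only these 2 groups, Sema3f and Sema4a were called higher. Macrophage markers summed to 64.6 to 102 CPM in WT and 192 to 386 CPM in disease mice (3 of 9 called higher), fibro-adipogenic progenitor markers to 927 to 1070 and 1685 to 2131 CPM (none of 9 called by edgeR, 6 at an unadjusted p below 0.05) and endothelial markers to 739 to 861 and 566 to 715 CPM (none of 11 called by edgeR, 4 at an unadjusted p below 0.05), all without overlap. Denervation and regeneration genes summed to 84.6 to 102 and 97.5 to 263 CPM (3 of 11 called higher). Their part in the members' values was not tested.

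TAM in Bin1 mck-/- mice lowered 1 member of 30 (3.33%), beside 3.13% of all genes tested, and raised none. This was Sema3b, a secreted ligand, at 24.5, 18.9, 21.5 and 24.3 CPM in disease and 13.0, 15.7, 13.9 and 11.1 in disease treated mice (edgeR log2 fold change −0.73 with SE 0.13, adjusted p = 0.0106). All treated mice were below all disease mice and below 3 of the 4 WT mice, which had 19.3, 18.3, 15.1 and 16.5 CPM, and the call was kept in all 12 fits without 1 mouse of cohort F. The members as a whole had a median log2 fold change of −0.25, against 0.00 over all genes, and 22 of 30 had negative values. Schwann cell markers summed to 104 to 165 CPM in disease and 58.7 to 72.6 CPM in disease treated mice (4 of 12 called lower) and fibro-adipogenic progenitor markers to 1685 to 2131 and 417 to 1535 CPM (1 of 9 called lower), both without overlap, and macrophage markers to 192 to 386 and 73.9 to 216 CPM (none of 9 called by edgeR, 6 at an unadjusted p below 0.05). Their part in the members' values was not tested. Nrp2, at 16.9, 25.5, 29.1 and 23.9 CPM in disease and 24.7, 44.8, 20.2 and 10.2 in disease treated mice, did not pass the test (edgeR log2 fold change 0.07 with SE 0.36, adjusted p = 0.937). Its highest value came from disease treated mouse 2, the mouse with the bone markers, which was also the highest for Plxnc1, at 1.53, 3.73, 0.272 and 0.292 CPM in the 4 treated mice (edgeR log2 fold change 1.12 with SE 0.75, adjusted p = 0.418). Without this mouse 4 members were called lower, Sema3b, Sema3d, Plxnb2 and Plxnb3, without disease treated mouse 1 Sema5a was called lower beside Sema3b, and DESeq2 on all mice called Sema3b and Plxnb3. Sema3d was at 0.621, 0.451, 0.538 and 1.31 CPM in disease and 0.0436, 0.485, 0.0776 and 0 in disease treated mice, where it had few reads. None of the 52 genes acting with the receptors was called by edgeR in this comparison (9 at an unadjusted p below 0.05).

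Between disease treated and WT mice of cohort F no member passed edgeR's quasi-likelihood test (10 at an unadjusted p below 0.05, 3 by DESeq2), beside 0.849% of all genes. The members' median log2 fold change was −0.25, against 0.03 over all genes. Sema4d came nearest, at 99.4, 104, 114 and 97.1 CPM in WT and 70.6, 54.7, 82.8 and 79.2 in disease treated mice (edgeR log2 fold change −0.53 with SE 0.12, adjusted p = 0.0549), and every treated mouse was below every WT mouse. Schwann cell markers summed to 97.3 to 147 CPM in WT and 58.7 to 72.6 CPM in disease treated mice (1 of 12 called lower) and endothelial markers to 739 to 861 and 458 to 670 CPM (none of 11 called by edgeR, 7 at an unadjusted p below 0.05), and their part in the members' values was not tested. DESeq2 called Sema4d, Plxnb3 and Nrp1 lower, and edgeR called Sema4d without disease mouse 4 or disease treated mouse 3. Of the genes acting with the receptors, Pak1 was higher (edgeR log2 fold change 1.002 with SE 0.17, adjusted p = 0.0110) and Mical2 lower (edgeR log2 fold change −1.47 with SE 0.25, adjusted p = 0.0183).

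The disease effect in cohort G minus that in cohort F was called for no member in a fit of all 28 mice (edgeR's quasi-likelihood test, 4 at an unadjusted p below 0.05, 1 by DESeq2), beside 0.312% of 16036 genes. The member with the smallest adjusted p was Sema3g, the one that DESeq2 called, with a log2 fold change between disease and WT of −1.32 in cohort G and −0.23 in cohort F (edgeR log2 fold change −1.09 with SE 0.30, adjusted p = 0.113 for the difference). Without disease mouse 3 of cohort G, edgeR called Sema3g and Nrp1. Flt1 was the gene acting with the receptors that passed the test for this difference (edgeR log2 fold change −1.17 with SE 0.26, adjusted p = 0.0478).

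The effect of TAM in disease mice of cohort G minus that in cohort F was called for no member either (edgeR's quasi-likelihood test, 13 at an unadjusted p below 0.05), beside 1.71% of all genes, but this count depended on the tool and on single mice. DESeq2 called 8 members, all higher in cohort G, and edgeR called 8 without disease treated mouse 2 of cohort F and 9 without disease treated mouse 4 of cohort G, the mice that stood apart in bone markers. Nrp2 was among them each time (a single member was called without disease mouse 1 or disease mouse 3 of cohort G, Plxna2 and Plxnd1), with log2 fold changes under TAM of 1.64 in cohort G and 0.07 in cohort F and a difference of 1.62 (SE 0.50, edgeR adjusted p = 0.0657) with all mice, 2.05 (edgeR adjusted p = 0.00824) without disease treated mouse 2 of cohort F and 1.85 (edgeR adjusted p = 0.0200) without disease treated mouse 4 of cohort G. Plxna2 had a difference of 1.06 with all mice (SE 0.30, edgeR adjusted p = 0.0576), and 1.07 (edgeR adjusted p = 0.0307) and 1.03 (edgeR adjusted p = 0.0385) without these mice. Over the 31 members the median difference was 0.69, against 0.01 over all genes, and it was 0.85 over the 11 receptors. Of the genes acting with the receptors, Flna, an actin-binding protein, passed the test (edgeR log2 fold change 1.26 with SE 0.31, adjusted p = 0.0446). The 2 comparisons share no mice, and model and library protocol cannot be told apart in them.

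The 11 members called in no comparison within a cohort were Sema3c, Sema3d, Sema3e, Sema4f, Sema5b, Sema6a, Sema6c, Plxna1, Plxna4, Plxnb3 and Plxnd1. Sema6c, the highest ligand, had group means of 75.7 to 156 CPM and log2 fold changes of −0.39 to 0.03 (smallest edgeR adjusted p = 0.0868). Plxnd1, the receptor of Sema3e in blood vessels, had group means of 64.1 to 94.5 CPM and log2 fold changes of −0.42 to 0.46 (smallest edgeR adjusted p = 0.0905). Sema3c, a secreted ligand, had group means of 27.8 to 56.8 CPM and log2 fold changes of −0.30 to 0.20 (smallest edgeR adjusted p = 0.239). Plxna1, with group means of 23.8 to 35.2 CPM, came nearest to the threshold in disease treated against WT mice of cohort G (edgeR log2 fold change 0.53 with SE 0.20, adjusted p = 0.0610). Sema6a, a transmembrane ligand of plexins A2 and A4, had group means of 11.9 to 21.2 CPM and spread widely among WT mice of cohort G. Plxna4 and Plxnb3 had group means of 4.70 to 7.38 and 1.94 to 3.26 CPM. Sema3d, Sema3e, Sema4f and Sema5b had group means of 0.140 to 2.26 CPM, and for Sema3e, with 4 to 40 reads per mouse in cohort G, only large differences could be detected at this depth.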

How the data were processed

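Polyadenylated RNA of TA muscle was sequenced in stranded libraries. Raw read counts by Ensembl identifier were deposited, in 1 table per cohort. The submitters' processing notes name bcl2fastq 2.20.0.422, cutadapt 1.10, Bowtie 1.2.2, STAR 2.5.3, HTSeq 0.6.1p1 and build mm39, with no roles given. In cohort F, 4 lines that name no gene (22.0 to 30.8% of reads) were left out. Genes were named with GENCODE M21 (52083 identifiers matched), which also gave exon lengths, and no coordinates of the counts were used. Counts were scaled by TMM, filtered with filterByExpr and tested with edgeR 4.0.16 (robust quasi-likelihood F-test, R 4.3.3), with all groups of a cohort in 1 fit and an adjusted p threshold of 0.05 over all genes. SE is the log2 fold change over the root of F. DESeq2 1.42.0 and limma 3.58.1 served as alternatives. The labels name each mouse as a sample of its own, and replicate numbers were not treated as pairs. Scripts were tested on simulated data. All members are named. Values per mouse are given for the up to 6 members with the smallest adjusted p among those called in a comparison. Members called in 3 or more are mostly given per mouse too. Plxna2 in WT treated mice and Sema3a in disease treated mice of cohort G have only the mean ± SD. Of the partner genes, the up to 3 with the smallest adjusted p are given. One partner gene that this rule names is not reported here. Members, partner genes and marker lists were chosen with earlier results of these data known.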

Additional observations from a re-analysis of the deposited data

Results flagged for a closer look

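In groups of 4 mice, a value was singled out when its distance to the nearest other mouse was most of the range of its group (Dixon's test at 95%). Chance gives about 1 in 20 groups, and 7 of the 140 groups of the 20 called members met it. In cohort G these were Plxnb2 in disease mouse 3 at 15.8 CPM, below the other disease mice, Sema3a in WT treated mouse 4 at 1.35 CPM and Sema7a in WT mouse 4 at 30.1 CPM, each the lowest of its group, and Sema4c in WT treated mouse 2 at 27.0 CPM, the highest. In cohort F they were Nrp1 in disease mouse 3 at 51.6 CPM, the highest, Nrp1 in disease treated mouse 4 at 17.2 CPM, the lowest, and Sema4b in WT mouse 6 at 4.35 CPM, the highest. The 7 values came from 7 different mice.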

How the results depend on the processing

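No member's fold change changed its sign against a call in any alternative, and of the 40 calls 17 were kept in every fit without 1 mouse and 20 in every other setting. Counts of members called in fits without 1 mouse ranged in cohort G from 5 to 12 for disease against WT (12 with all mice), from 6 to 14 for TAM in WT (12), from 2 to 10 for TAM in disease (7), from 3 to 14 for disease treated against WT (8) and from 0 to 2 for the difference between the TAM effects (0), in cohort F from 1 to 4 for TAM in disease (1) and from 0 to 1 for disease treated against WT (0), and between cohorts from 0 to 2 for the disease effect and from 0 to 9 for the TAM effect (0 each). With only the groups compared the count was 0 for TAM in disease of cohort G and 2 for disease against WT of cohort F. DESeq2 gave 1 for disease against WT, 2 for TAM in disease and 3 for disease treated against WT in cohort F, 2 for the difference between TAM effects in cohort G, and 1 and 8 for the disease and the TAM effect between cohorts. Without the filter on low counts, disease treated against WT gave 5 in cohort G and 1 in cohort F. Limma voom with quality weights, chosen after seeing the data, gave 12 for TAM in disease and 17 for disease treated against WT in cohort G, and 1 for disease treated against WT in cohort F. Over all genes, calls moved by over 1.5 times for TAM in disease of cohort G (1277, against 814 without the filter, 2931 by limma voom, 30 with only the groups compared and 843 with the block), for disease treated against WT (4461, against 7488 by limma voom) and WT treated (417, against 937 by DESeq2 and 797 by limma voom), and for the difference between TAM effects (40, against 327 by DESeq2, 155 by limma voom, 20 with RLE normalization and 10 with the block). In cohort F they moved for disease against WT (388, against 1191 by DESeq2, 1732 by limma voom and 1458 with only the groups compared), TAM in disease (464, against 1223, 230 and 122, and 152 with the block) and disease treated against WT (126, against 544 by DESeq2 and 210 without the filter), and between cohorts for the disease effect (50, against 223 by DESeq2) and the TAM effect (274, against 1328 by DESeq2 and 63 without the filter). Without 1 mouse, calls over all genes ranged in cohort G from 2034 to 3953 for disease against WT (3382 with all mice; lowest without WT mouse 2), from 2769 to 4825 for TAM in WT (4273; lowest without WT treated mouse 2), from 368 to 2562 for TAM in disease, from 2955 to 5497 and from 182 to 623 for disease treated against WT and WT treated, and from 1 to 293 for the difference between TAM effects. In cohort F they ranged from 18 (without WT mouse 8) to 759 for disease against WT, from 160 to 1253 for TAM in disease and from 42 to 266 for disease treated against WT, and between cohorts from 13 to 154 for the disease effect and from 6 to 2195 for the TAM effect. The cause of these shifts was not tested. The replicate number as a block gave 10, 9, 5, 8 and 0 members in the 5 comparisons of cohort G and 0 for TAM in disease of cohort F, where the call of Sema3b was lost (edgeR adjusted p = 0.0882). Mice with the same number did not deviate together (correlations of −0.33 to 0.34 over genes), so that the numbers do not pair the mice, and no such fit was possible with WT mice of cohort F, which carry other numbers. Members with few reads, such as Sema3e, Sema4f and Sema5b, limit what can be detected.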
